A study of Mus musculus with 47 samples.

Results

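The diet effect in the liver of CAST/EiJ mice was set against the diet effect in the liver of C57BL/6J mice. The quantity measured for each gene was the log2 fold change of 44% fat over 10% fat in CAST/EiJ minus the same log2 fold change in C57BL/6J, averaged over females and males, and it is called the difference of diet effects. All CAST/EiJ and C57BL/6J libraries were used, which were 31 of the 47 in the series. A value above 0 means that the change on 44% fat was more positive in CAST/EiJ than in C57BL/6J, whichever way either strain moved. CAST/EiJ is an inbred strain derived from wild-caught Mus musculus castaneus, and C57BL/6J is the common laboratory strain on which the mouse reference genome is built. The study asks how genotype and diet act together in mouse models of type 2 diabetes.

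The libraries were poly(A) RNA-seq of whole liver from wild-type mice with no other treatment. CAST/EiJ had 4 libraries of females and 4 of males on the 44% fat diet, and 4 of females and 3 of males on the 10% fat diet. C57BL/6J had 4 libraries of females and 4 of males on each diet. Both diets contained added fiber, were started at 6 weeks of age and were fed until tissue was taken at 15 weeks, and the submitters' design text describes the 44% fat diet as high in fat and sugar. The labels do not say whether each library came from a separate mouse, so the p-values measure the spread between libraries. The 16 libraries of the other strain, NZO/HlLtJ, entered the fit only to share its estimate of spread.

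The liver senses its sterol content through a membrane-bound transcription factor, SREBP2, which is held back when cholesterol is plentiful and switches on cholesterol synthesis and uptake when it is scarce. Dietary fat also reaches the nuclear receptor PPAR alpha, which drives fatty acid oxidation, while insulin and sugar raise fatty acid synthesis through SREBP1c and ChREBP. Inbred strains can carry different alleles at each of these steps, and a strain-by-diet interaction is the statistical form of a strain-dependent response.

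Total estimated counts lay between 30585807 and 46605727 in the 31 libraries, and the ranges of the 4 strain and diet groups overlapped. Hepatocyte marker transcripts summed to 64800 to 136000 CPM (estimated counts scaled to a common library size) in CAST/EiJ on 44% fat, 80800 to 153000 CPM in CAST/EiJ on 10% fat, 98700 to 123000 CPM in C57BL/6J on 44% fat and 92200 to 134000 CPM in C57BL/6J on 10% fat. In 5 libraries the pancreatic acinar gene Cpa1 reached at least 20 CPM: C57BL/6J females on 44% fat replicates 1 and 2, C57BL/6J males on 10% fat replicates 2 and 3, and CAST/EiJ females on 44% fat replicate 2. The library of C57BL/6J females on 44% fat, replicate 1, stood apart from the other 3 of its group in other ways too. Its mean centred log2 CPM was 2.03 over the cell cycle list, against -0.08 to 0.26 in the others, and -1.12 over the pericentral hepatocyte list, against -0.07 to 0.11.

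The diet effects of the 2 strains differed past the threshold at 3 of 16650 genes tested (0.018%; edgeR quasi-likelihood test, Benjamini-Hochberg adjusted p under 0.05). All 3 had a value below 0: Tstd1, Tceal8 and Mmd2. At an unadjusted p under 0.05 there were 1594 genes (9.57%), 616 of them above 0 (3.7%) and 978 below (5.87%), and at an adjusted p under 0.10 there were 23. Of those 23 genes, 16 had diet effects of opposite sign in the 2 strains, which choosing genes by a wide difference favours. Over all genes tested the median difference was -0.02. The number called depended on the tool: DESeq2 called 71 genes, 24 above 0 and 47 below, and limma on the authors' variance-stabilized values called 20, 13 above 0 and 7 below.

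**Figure D1:**
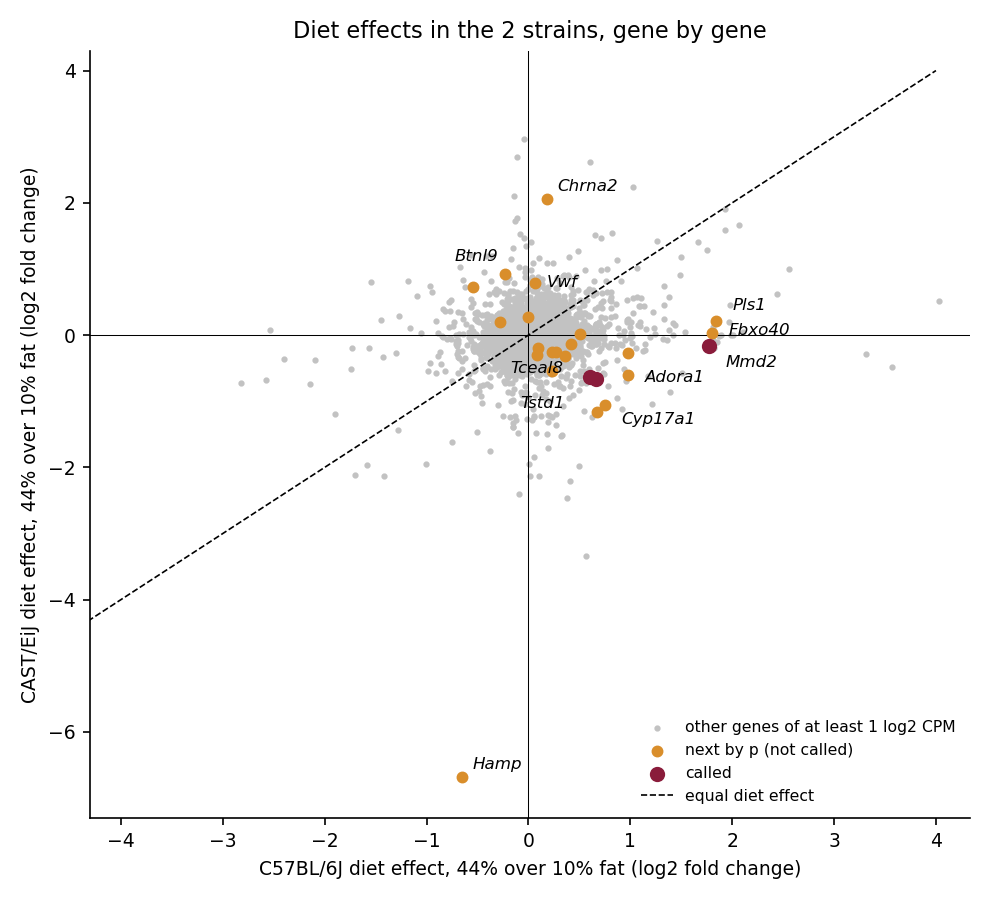
Diet effect of each gene (log2 fold change, 44% over 10% fat) in CAST/EiJ on the vertical axis against C57BL/6J on the horizontal axis, for 11244 genes averaging at least 1 log2 CPM. The dashed line marks equal effects. The 3 called genes and the 21 next by p lie off it, which choosing genes by a small p for the difference favours. Some lie close to the line, such as Mapk14 at 0.28 in CAST/EiJ against 0.00 in C57BL/6J. Hamp is lowest, at -6.68 in CAST/EiJ against -0.65 in C57BL/6J.

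Most genes had small diet effects in both strains. Across genes the 2 diet effects had a Pearson r of 0.082 and a Spearman rho of 0.11 over the 16650 genes tested, and an r of 0.156 and a rho of 0.159 over the 11244 genes averaging at least 1 log2 CPM. These are correlations across genes, which are not independent replicates. No library was shared between the 2 diet effects.

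Tstd1, which encodes a small protein with a rhodanese (thiosulfate sulfurtransferase) domain, changed in opposite directions in the 2 strains. It lies at chr1:171418872-171420352 on the plus strand (GRCm38; ENSMUSG00000103711). In CAST/EiJ females it had 3.91, 5.40, 3.21 and 3.23 CPM on 44% fat, against 6.54, 7.37, 5.86 and 8.12 CPM on 10% fat. In CAST/EiJ males it had 8.17, 10.4, 7.93 and 8.43 CPM on 44% fat, against 16.2, 10.3 and 10.6 CPM on 10% fat. The females on the 2 diets did not overlap, and in males 1 library on 44% fat lay just above the lowest on 10% fat. In C57BL/6J females it had 6.57, 4.18, 3.08 and 3.83 CPM on 44% fat, against 1.92, 3.01, 1.74 and 2.36 CPM on 10% fat. In C57BL/6J males it had 4.94, 4.77, 4.42 and 4.08 CPM on 44% fat, against 3.38, 3.49, 3.33 and 4.02 CPM on 10% fat. Every C57BL/6J library on 44% fat was thus above every one on 10% fat of the same sex.

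The diet effect of Tstd1 was -0.66 in CAST/EiJ (adjusted p = 0.0191) and 0.66 in C57BL/6J (adjusted p = 0.0147), both by edgeR's quasi-likelihood test. Their difference was -1.33 ± 0.21 (log2, SE; 95% interval -1.75 to -0.91; edgeR adjusted p = 0.00102). It was -1.80 in females and -0.86 in males. The edgeR test of that gap between the sexes gave an unadjusted p of 0.0284, and no gene was called in that test after adjustment. Tstd1 shares 271 bases with Usf1 on the same strand, and the difference of diet effects of Usf1 was 0.01 ± 0.09.

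Tceal8, an X-linked member of the family named after transcription elongation factor A, also moved in opposite directions. It lies at chrX:136168984-136172342 on the minus strand (GRCm38; ENSMUSG00000051579). In CAST/EiJ females it had 4.22, 3.24, 2.95 and 3.41 CPM on 44% fat, against 4.38, 3.60, 5.01 and 5.05 CPM on 10% fat. In CAST/EiJ males it had 2.95, 2.66, 2.94 and 1.86 CPM on 44% fat, against 5.84, 5.05 and 3.37 CPM on 10% fat. The CAST/EiJ males did not overlap and the CAST/EiJ females did. In C57BL/6J females it had 14, 11.8, 12.5 and 12.5 CPM on 44% fat, against 9.80, 9.44, 9.88 and 9.13 CPM on 10% fat. In C57BL/6J males it had 13.3, 18.7, 8.14 and 15.4 CPM on 44% fat, against 9.39, 6.88, 7.20 and 8.47 CPM on 10% fat. The C57BL/6J females did not overlap, and among the males replicate 3 on 44% fat fell inside the range on 10% fat. The diet effect of Tceal8 was -0.63 in CAST/EiJ (edgeR adjusted p = 0.0235) and 0.60 in C57BL/6J (edgeR adjusted p = 0.0120). The difference was -1.23 ± 0.19 (log2, SE; 95% interval -1.62 to -0.84; edgeR adjusted p = 0.00102), with -0.79 in females and -1.66 in males.

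Mmd2, a Golgi membrane protein of the progestin and adipoQ receptor family, differed in another way: it was not called in CAST/EiJ and rose in C57BL/6J. It lies at chr5:142562358-142608800 on the minus strand (GRCm38; ENSMUSG00000039533). CAST/EiJ females had 48.6, 34.4, 49.0 and 53.8 CPM on 44% fat, against 55.1, 42.4, 55.5 and 63.0 CPM on 10% fat. CAST/EiJ males had 62.4, 47.7, 45.2 and 42.7 CPM on 44% fat, against 65.5, 55.7 and 37.9 CPM on 10% fat. The diets overlapped in both sexes of CAST/EiJ. In C57BL/6J females it had 24.1, 7.33, 11 and 7.59 CPM on 44% fat, against 2.71, 4.52, 2.46 and 3.43 CPM on 10% fat. In C57BL/6J males it had 4.37, 4.12, 1.59 and 5.96 CPM on 44% fat, against 1.44, 1.15, 1.38 and 1.28 CPM on 10% fat. Neither sex of C57BL/6J overlapped between diets, and every C57BL/6J library lay below every CAST/EiJ library. The diet effect of Mmd2 was -0.16 in CAST/EiJ (edgeR adjusted p = 0.856) and 1.77 in C57BL/6J (edgeR adjusted p = 3.99e-05). The difference was -1.93 ± 0.32 (log2, SE; 95% interval -2.57 to -1.29; edgeR adjusted p = 0.00283). Without C57BL/6J females on 44% fat replicate 1, the highest C57BL/6J library, it was -1.66 (edgeR adjusted p = 0.00347).

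**Figure D2:**
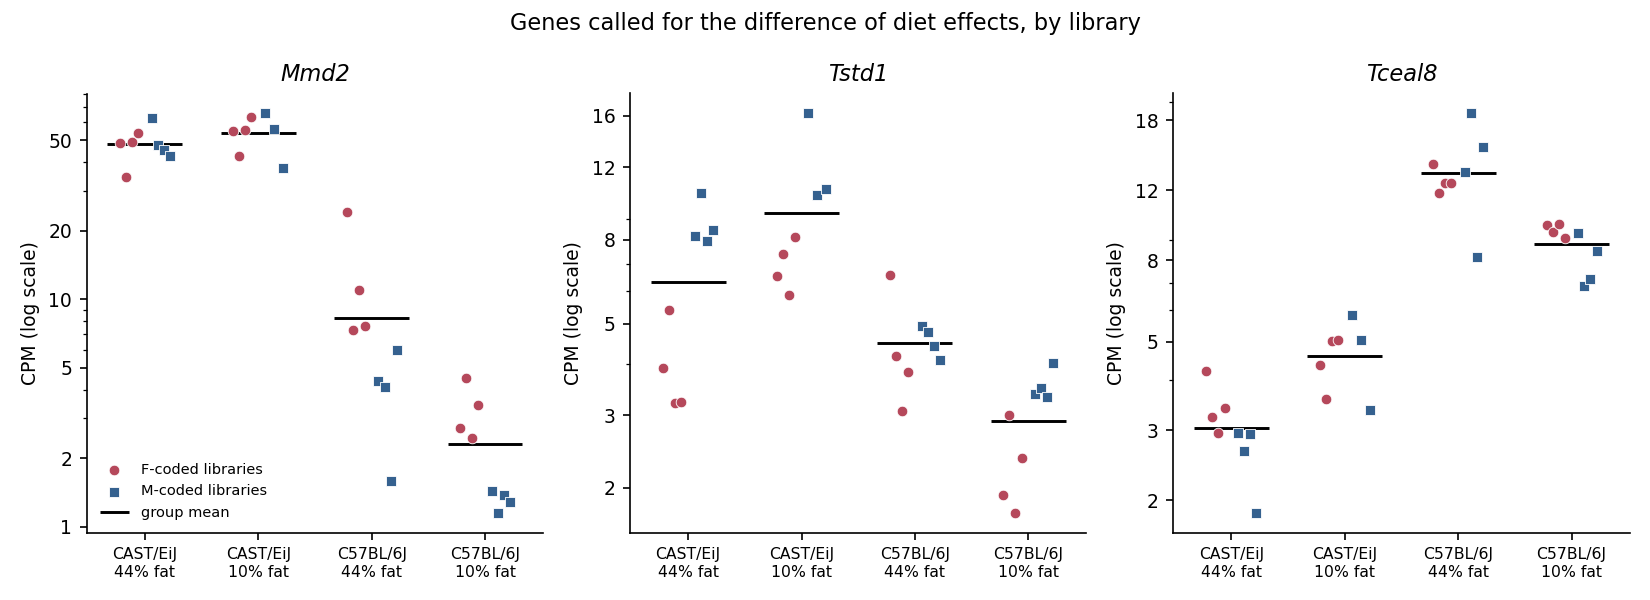
CPM (log scale) of Tstd1, Tceal8 and Mmd2 in each library, by strain and diet, with females (F-coded) and males (M-coded) marked separately and a line at each group mean. Mean Tstd1 was 6.33 and 9.27 CPM in CAST/EiJ on 44% and 10% fat, against 4.48 and 2.91 CPM in C57BL/6J, and mean Mmd2 was 48.0 and 53.6 CPM against 8.26 and 2.30 CPM.

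All 3 genes were called in each of 31 fits that left out 1 library. Without the 5 libraries holding acinar transcripts, Tstd1 was at -1.22 (edgeR adjusted p = 0.0253), while Mmd2 at -1.63 and Tceal8 at -1.12 missed the threshold (edgeR adjusted p = 0.0735 for each). Sample identifiers in the titles fall into 3 runs, the nearest the labels come to a batch. Within each run alone, in order, Mmd2 was at -2.60, -1.66 and -1.37, Tstd1 at -2.02, -1.04 and -1.12, and Tceal8 at -1.02, -1.24 and -1.22. None of the 3 was called within a single run. Each kept a value below 0, which choosing genes on all the runs together favours.

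The annotated promoters of the 3 called genes are shown because their transcripts define the result. Each runs from 250 bases before to 50 after the start annotated by RefSeq on GRCm38.p6, printed 5′ to 3′ along the gene's strand, with the 50 bases from the start in capitals. They are at chr1:171418783-171419082 (plus strand), chrX:136172202-136172501 (minus strand) and chr5:142608703-142609002 (minus strand). By the deposited gene coordinates given above, each gene begins inside the lower-case part, so some lower-case bases lie within the counted gene.
Tstd1: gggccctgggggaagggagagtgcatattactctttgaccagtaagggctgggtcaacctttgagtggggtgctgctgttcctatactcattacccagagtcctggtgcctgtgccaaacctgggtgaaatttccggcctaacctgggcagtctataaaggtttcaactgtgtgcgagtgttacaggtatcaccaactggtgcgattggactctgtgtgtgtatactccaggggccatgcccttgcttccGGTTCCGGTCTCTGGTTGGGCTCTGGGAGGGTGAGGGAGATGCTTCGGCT
Tceal8: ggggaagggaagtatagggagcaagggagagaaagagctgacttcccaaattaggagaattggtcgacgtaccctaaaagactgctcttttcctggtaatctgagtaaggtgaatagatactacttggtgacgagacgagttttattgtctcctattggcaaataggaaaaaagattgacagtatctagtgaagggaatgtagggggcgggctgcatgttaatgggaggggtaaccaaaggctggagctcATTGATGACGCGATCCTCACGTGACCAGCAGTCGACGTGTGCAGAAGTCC
Mmd2: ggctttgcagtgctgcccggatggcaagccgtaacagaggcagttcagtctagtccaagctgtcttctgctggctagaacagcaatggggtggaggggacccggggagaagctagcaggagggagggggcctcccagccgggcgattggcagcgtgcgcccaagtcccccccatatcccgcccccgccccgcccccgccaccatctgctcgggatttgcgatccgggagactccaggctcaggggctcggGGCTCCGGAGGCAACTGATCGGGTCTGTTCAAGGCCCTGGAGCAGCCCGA
The Mmd2 promoter is 67.0% G and C with 18 CpG dinucleotides, that of Tstd1 is 55.0% with 6, and that of Tceal8 is 47.7% with 10. The median of 32851 annotated promoters was 52.7% with 7 CpG dinucleotides. The 3 windows lie on both sides of that median.

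The next 21 genes by p were taken from those averaging at least 1 log2 CPM with a symbol that is not provisional. None of the 21 passed the threshold in edgeR (adjusted p between 0.0791 and 0.124), so their differences of diet effects are values. Igha (2.11), Rian (1.42) and Unc5cl (4.25), all above 0 at an edgeR adjusted p of 0.089, averaged below 1 log2 CPM and were left out. DESeq2 called all 21, and limma called 6 of them: Btnl9, Vwf, Chp1, Mfap3l, Chrna2 and Ceacam2. All 24 genes kept their sign in each of the 31 fits that left out 1 library, which choosing genes by a small p favours.

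Among genes that changed with diet in CAST/EiJ, Vwf encodes von Willebrand factor, the clotting glycoprotein made by endothelium. Vwf in CAST/EiJ females was at 48.2, 37.8, 43.4 and 44.3 CPM on 44% fat, against 17.4, 27.8, 27.8 and 18.7 CPM on 10% fat. Vwf in CAST/EiJ males was at 30.9, 26.7, 34.6 and 23.5 CPM on 44% fat, against 14.3, 23.5 and 16.9 CPM on 10% fat. In C57BL/6J the 8 libraries on 44% fat had a lowest, median and highest of 11.5, 12.7 and 17.3 CPM, against 10.3, 12.8 and 15.4 CPM on 10% fat. CAST/EiJ females did not overlap between diets, the lowest male on 44% fat and the highest male on 10% fat were both at 23.5 CPM, and the C57BL/6J ranges lay over each other. Vwf rose by 0.79 in CAST/EiJ (edgeR adjusted p = 0.000126) and had 0.06 in C57BL/6J. The difference was 0.74 ± 0.16 (95% interval 0.42 to 1.06, edgeR adjusted p = 0.0890). The 15 endothelial marker genes, Vwf among them, had a median difference of -0.03, with 7 above 0 and 8 below. Over females their median was -0.07, with 5 above 0 and 10 below, and over males 0.15, with 14 above and 1 below. Their summed level was 450 to 698 CPM in CAST/EiJ on 44% fat, 524 to 659 CPM on 10% fat, 552 to 663 CPM in C57BL/6J on 44% fat and 472 to 806 CPM on 10% fat. In whole tissue, a change in the number of cells of a type and a change in RNA per cell cannot be told apart.

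Btnl9, of the butyrophilin family, rose by 0.93 in CAST/EiJ (edgeR adjusted p = 0.00746) and had -0.23 in C57BL/6J. In CAST/EiJ females it had 2.27, 2.83, 3.03 and 3.11 CPM on 44% fat, against 1.13, 1.65, 1.46 and 1.48 CPM on 10% fat. In CAST/EiJ males it had 2.36, 1.89, 2.54 and 2.05 CPM on 44% fat, against 0.890, 0.888 and 1.78 CPM on 10% fat. All 8 CAST/EiJ libraries on 44% fat were above all 7 on 10% fat, while the C57BL/6J diets overlapped in both sexes. The difference was 1.15 ± 0.24 (edgeR adjusted p = 0.0791). 

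Mapk14, the stress-activated kinase p38 alpha, showed the same separation with a smaller fold. It had a lowest, median and highest of 104, 112 and 125 CPM in CAST/EiJ on 44% fat, against 87.8, 92.9 and 96.9 CPM on 10% fat. In C57BL/6J it had 83.6, 88.6 and 96.1 CPM on 44% fat, against 82.8, 87.6 and 96.2 CPM on 10% fat. No CAST/EiJ library on 44% fat was as low as any on 10% fat, while the C57BL/6J ranges overlapped. Mapk14 rose by 0.28 in CAST/EiJ (edgeR adjusted p = 0.000793) with 0.00 in C57BL/6J, and the difference was 0.28 ± 0.06.

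Chrna2, a nicotinic acetylcholine receptor subunit, rose by 2.06 in CAST/EiJ (edgeR adjusted p = 0.000481) and had 0.18 in C57BL/6J, a difference of 1.88 ± 0.43. CAST/EiJ males had 75.1, 93.8, 118 and 119 CPM on 44% fat, against 10.7, 11.9 and 40.4 CPM on 10% fat. CAST/EiJ females had 7.14, 8.69, 16.4 and 16.1 CPM on 44% fat, against 2.03, 8.77, 1.87 and 0.754 CPM on 10% fat. The males did not overlap, and the females overlapped through 1 library on 10% fat.

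In the opposite direction, Smo, the signal transducer of the Hedgehog pathway, fell by 0.54 in CAST/EiJ (edgeR adjusted p = 0.0378) and had 0.23 in C57BL/6J. CAST/EiJ females had 1.84, 1.75, 1.44 and 1.74 CPM on 44% fat, against 1.96, 2.71, 2.46 and 2.13 CPM on 10% fat. CAST/EiJ males had 2.65, 2.62, 2.38 and 1.54 CPM on 44% fat, against 3.83, 3.49 and 3.34 CPM on 10% fat. Neither sex overlapped, and the difference was -0.78 ± 0.18. Apex1, the abasic-site endonuclease of base excision repair, fell by 0.30 in CAST/EiJ (edgeR adjusted p = 0.0181), with 18.6 ± 3.0 CPM on 44% fat and 22.4 ± 3.12 CPM on 10% fat (SD, n = 8 and n = 7). It had 0.08 in C57BL/6J, and the diets did not overlap in either sex of CAST/EiJ. Apex1 shares 1070 bases with Tmem55b on the other strand, and the strand setting of the counting is not given in the sources used here.

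Hamp, which encodes hepcidin, the peptide hormone that limits iron release into plasma, had the largest difference and the widest interval of the 24 genes. In CAST/EiJ females it had 0, 0.0292, 0 and 0.0994 CPM on 44% fat, against 35.1, 0.195, 0.0293 and 18.7 CPM on 10% fat. In CAST/EiJ males it had 0, 0, 0 and 1.12 CPM on 44% fat, against 18.8, 0 and 6.91 CPM on 10% fat. In C57BL/6J the 8 libraries on 44% fat ranged from 74.9 to 303 CPM, against 97.0 to 407 CPM in the 8 on 10% fat. Both sexes of CAST/EiJ overlapped between diets, and every C57BL/6J library was above every CAST/EiJ library. Hamp fell by 6.68 in CAST/EiJ (edgeR adjusted p = 0.000793) and had -0.65 in C57BL/6J. The difference was -6.04 ± 1.32 (95% interval -8.71 to -3.36), and single-run values were -11.74, -3.73 and -2.88. It was -9.32 without CAST/EiJ males on 44% fat replicate 4, the male library above 0 on that diet, and -1.54 by limma on the variance-stabilized values (adjusted p = 0.510). Reads of Hamp may be shared with its near-identical neighbour Hamp2, and fold changes against libraries at 0 depend on the prior count. The 18 tested genes of the hepcidin and iron list had a median difference of -0.08, with 7 above 0 and 11 below.

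A second group had its called diet effect in C57BL/6J, which does not by itself show that the strains differ. Tpmt, thiopurine methyltransferase, had -0.14 in CAST/EiJ and rose by 0.42 in C57BL/6J (edgeR adjusted p = 0.00768), a difference of -0.56 ± 0.12. Coq7, a hydroxylase of ubiquinone synthesis, had 0.01 in CAST/EiJ and rose by 0.51 in C57BL/6J (edgeR adjusted p = 0.00049). Its levels were 9.83 ± 1.06 CPM on 44% fat and 9.73 ± 0.713 CPM on 10% fat in CAST/EiJ, and 12.1 ± 3.01 CPM on 44% fat and 8.51 ± 2.00 CPM on 10% fat in C57BL/6J (SD, n = 8, 7, 8 and 8). The C57BL/6J females did not overlap between diets and the males did. 

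Pls1, an actin-bundling plastin, had 0.22 in CAST/EiJ and rose by 1.84 in C57BL/6J (edgeR adjusted p = 0.00049). Its CAST/EiJ libraries had a lowest, median and highest of 9.40, 13.8 and 24 CPM on 44% fat, against 7.93, 14.7 and 18.1 CPM on 10% fat. C57BL/6J females had 1.28, 1.35, 2.04 and 2.50 CPM on 44% fat, against 0.990, 0.575, 0.352 and 0.638 CPM on 10% fat. C57BL/6J males had 1.94, 3.60, 0.793 and 3.47 CPM on 44% fat, against 0.596, 0.103, 0.418 and 1.01 CPM on 10% fat. The C57BL/6J females did not overlap, the males did, and every C57BL/6J library was below every CAST/EiJ library. The difference was -1.62 ± 0.38. Fbxo40, an F-box protein known from muscle, averaged 5.63 CPM on 44% fat and 5.61 CPM on 10% fat in CAST/EiJ. It rose by 1.80 in C57BL/6J (edgeR adjusted p = 0.00815), where its mean was 0.605 CPM on 44% fat and 0.189 CPM on 10% fat.

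Adora1, the adenosine A1 receptor, had -0.61 in CAST/EiJ and rose by 0.98 in C57BL/6J (edgeR adjusted p = 0.0331), a difference of -1.59 ± 0.35. CAST/EiJ females had 8.18, 6.10, 4.95 and 8.18 CPM on 44% fat, against 8.92, 13.2, 13.1 and 22.2 CPM on 10% fat. C57BL/6J males had 30.0, 25.2, 17.6 and 25.1 CPM on 44% fat, against 13.5, 17.3, 8.74 and 10.5 CPM on 10% fat. Those 2 pairs of groups did not overlap and lay in opposite order. The other pairs, CAST/EiJ males and C57BL/6J females, overlapped.

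The other genes described here had no called diet effect in either strain. In each of them the 2 effects had opposite signs, which choosing genes by a wide difference favours. Chp1, a calcineurin-like cofactor of sodium-proton exchangers, had 0.20 in CAST/EiJ and -0.28 in C57BL/6J. Mfap3l, a membrane protein related to a microfibril component, had 0.73 in CAST/EiJ and -0.54 in C57BL/6J. Its CAST/EiJ males had 12.5, 13.5, 15.8 and 16.3 CPM on 44% fat, against 8.45, 7.29 and 8.15 CPM on 10% fat, with no overlap. Uaca had -0.31 and 0.36, Parp12, an ADP-ribosyltransferase, -0.25 and 0.27, Nsmce1, a subunit of an SMC-type DNA repair complex, -0.25 and 0.23, and Mapkap1, a subunit of mTOR complex 2, -0.19 and 0.09. Ceacam2 had -0.27 and 0.98, but no C57BL/6J library passed 0.361 CPM, and reads may be split with its paralog Ceacam1.

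**Figure D3:**
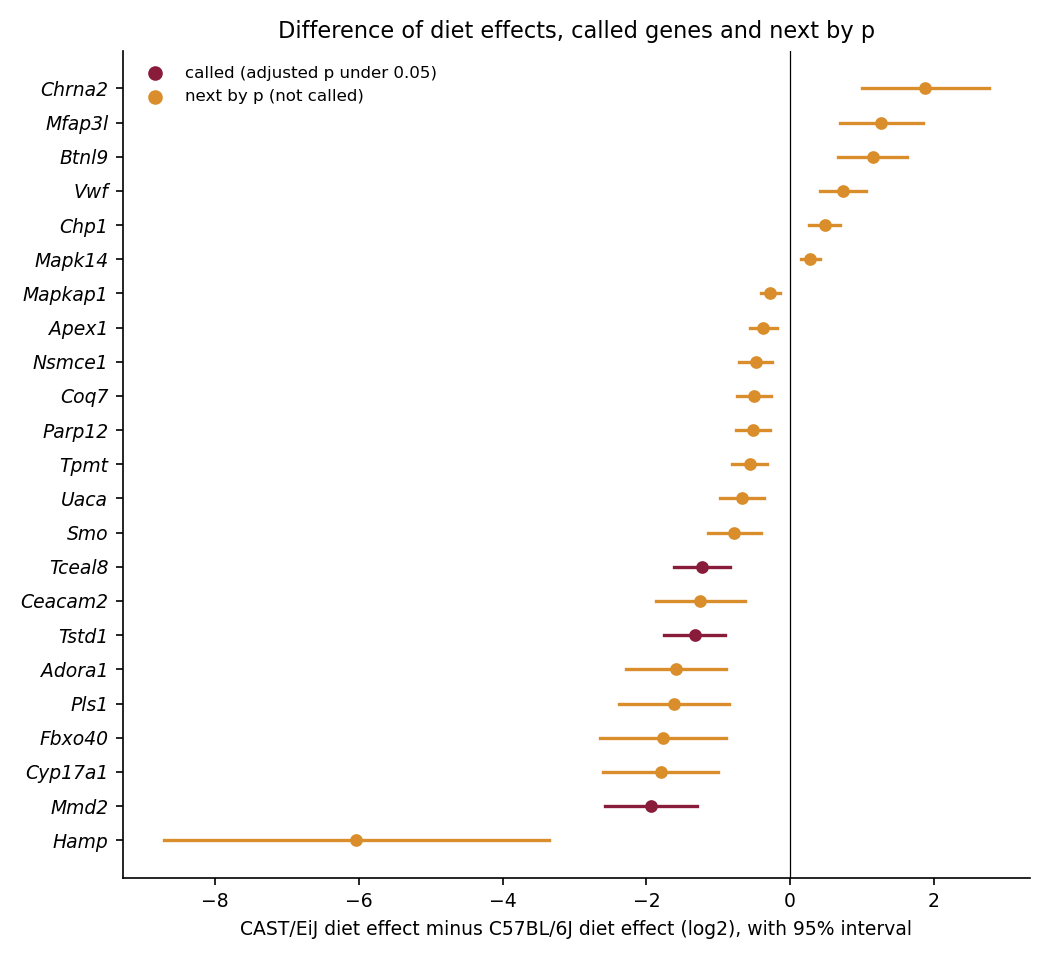
Difference of diet effects (log2, CAST/EiJ minus C57BL/6J) with its 95% interval for the 3 called genes and 20 of those next by p. All average at least 1 log2 CPM. The intervals run from -8.71 to -3.36 for Hamp at the lower end to 1.00 to 2.76 for Chrna2 at the upper end, and 6 of the 23 estimates shown are above 0.

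Lepr, the leptin receptor, was chosen from earlier results of these data, so its gap is not an independent observation. It had 0.23 in CAST/EiJ and fell by 1.45 in C57BL/6J (edgeR adjusted p = 0.00768). Females of CAST/EiJ had 95.5, 167, 171 and 183 CPM on 44% fat, against 121, 268, 156 and 98.0 CPM on 10% fat. CAST/EiJ males had 33.5, 6.91, 23.5 and 21.5 CPM on 44% fat, against 10.5, 8.39 and 25.8 CPM on 10% fat. Both sexes of CAST/EiJ overlapped between diets. C57BL/6J females had 37.0, 43.4, 30.0 and 44.6 CPM on 44% fat, against 78.3, 128, 92.7 and 100 CPM on 10% fat. C57BL/6J males had 13.2, 6.18, 7.01 and 6.62 CPM on 44% fat, against 33.7, 24.2, 23.5 and 14.1 CPM on 10% fat. Neither sex of C57BL/6J overlapped. The difference was 1.68 ± 0.41 (edgeR adjusted p = 0.127), and the single-run values were 1.85, 1.70 and 1.57.

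When the sexes were tested apart, the difference of diet effects was called at 1 gene in females (0.00601%), which was Tstd1, and at 1 gene in males (0.00601%), which was Tceal8 at -1.66 (edgeR adjusted p = 0.00776). Without CAST/EiJ males on 10% fat replicate 1, Tceal8 was not called in males, and 2 other genes were, both above 0. Without the 5 libraries holding acinar transcripts no gene was called in either sex. At an unadjusted p under 0.05 there were 1316 genes in females and 967 in males. The test of females minus males called no gene (0%), with 693 genes at an unadjusted p under 0.05, and DESeq2 called 4 and limma 0. Both sexes therefore rest on few called genes, and a gene called in 1 sex is not shown to differ between them.

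Cyp17a1, a steroid hydroxylase and lyase, was the gene of the 24 with the smallest p for the sex term, at -0.50 in females and -3.11 in males (unadjusted p = 0.00221, adjusted p = 1 by edgeR). CAST/EiJ males had 2.79, 3.90, 3.86 and 3.57 CPM on 44% fat, against 13.2, 6.49 and 10.6 CPM on 10% fat. C57BL/6J males had 32.8, 14.4, 9.11 and 31.4 CPM on 44% fat, against 8.05, 6.21, 6.15 and 8.84 CPM on 10% fat. The male groups did not overlap in either strain and lay in opposite order. CAST/EiJ females had 154, 173, 198 and 278 CPM on 44% fat, against 297, 230, 265 and 420 CPM on 10% fat. C57BL/6J females had 64.5, 143, 107 and 143 CPM on 44% fat, against 117, 139, 90.5 and 142 CPM on 10% fat. Females overlapped in both strains. Averaged over sex, the difference was -1.80 ± 0.40 (edgeR adjusted p = 0.0890), and in males alone it missed the threshold (edgeR adjusted p = 0.0558).

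Taken by strain, diet changed 149 genes in CAST/EiJ (0.895%), 83 higher (0.498%) and 66 lower (0.396%), and 165 genes in C57BL/6J (0.991%), 137 higher (0.823%) and 28 lower (0.168%). There were 8 genes called in both. Of these, 6 moved the same way: Gpc1, a heparan sulfate proteoglycan, at 1.01 in CAST/EiJ and 1.07 in C57BL/6J, Rhbg, an ammonium transporter, at 0.61 and 0.64, Them7 at 0.51 and 0.81, Tmem28 at 1.54 and 2.49, Gfm2, a mitochondrial ribosome recycling factor, at 0.21 and 0.19, and Slco2a1, a prostaglandin transporter, at -0.59 and -0.58. The other 2, Tstd1 and Tceal8, moved in opposite directions.

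The genes called in one strain had smaller effects of mostly the same sign in the other. The 83 genes higher in CAST/EiJ had a median effect of 0.46 in CAST/EiJ and 0.14 in C57BL/6J, where 69 (83.1%) were above 0 and 5 (6.02%) were called. The 66 lower genes had a median of -0.65 in CAST/EiJ and -0.08 in C57BL/6J, where 48 (72.7%) were below 0 and 1 (1.52%) was called lower. For the 137 genes higher in C57BL/6J the medians were 0.08 in CAST/EiJ and 0.44 in C57BL/6J, and 101 (73.7%) were above 0 in CAST/EiJ with 5 (3.65%) called higher. For the 28 genes lower in C57BL/6J they were -0.13 in CAST/EiJ and -0.46 in C57BL/6J, with 21 (75.0%) below 0 in CAST/EiJ and 1 (3.57%) called lower. Of all 16650 genes tested, 8883 were above 0 and 7746 below in C57BL/6J, and 8307 above and 8288 below in CAST/EiJ. The shares called were 0.823% higher and 0.168% lower in C57BL/6J, and 0.498% higher and 0.396% lower in CAST/EiJ. Each set was chosen on its own strain's effect, so a larger median there follows from the choice. Being called in one strain and not in the other does not show that the strains differ, and the difference itself was called at 3 of all these genes.

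Cholesterol synthesis and sterol sensing had the lowest median difference of the 30 lists of genes by function. Of its 26 genes, 0 were above 0 and 26 below, with a median difference of -0.92 against -0.02 over all genes tested. None was called by edgeR (smallest adjusted p = 0.162), 18 had an unadjusted p under 0.05 (9.57% of all genes tested, 5.87% below 0), DESeq2 called 4 (Dhcr7, Msmo1, Sc5d and Sqle) and limma called 0. The median diet effect of the list was -0.76 in CAST/EiJ, where 8 genes fell (0.396% of all genes tested), and 0.06 in C57BL/6J, where none was called and none had an unadjusted p under 0.05. The members share 1 set of libraries and are not replicates.

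Sqle encodes squalene epoxidase, an oxygen-requiring step of sterol synthesis. Females of CAST/EiJ had 1.59, 2.36, 2.85 and 1.74 CPM on 44% fat, against 15.5, 4.41, 9.87 and 15.5 CPM on 10% fat. Males of CAST/EiJ had 6.29, 33.1, 15.9 and 6.28 CPM on 44% fat, against 81.6, 54.3 and 29.5 CPM on 10% fat. The females did not overlap, and in males 1 library on 44% fat lay above the lowest on 10% fat. In C57BL/6J females it had 6.42, 41.5, 21.2 and 37.3 CPM on 44% fat, against 38.8, 36.6, 43.6 and 23.9 CPM on 10% fat. In C57BL/6J males it had 67.8, 74.6, 44.1 and 86.9 CPM on 44% fat, against 50.7, 19.4, 45.8 and 83.7 CPM on 10% fat. Both sexes of C57BL/6J overlapped. Sqle fell by 2.13 in CAST/EiJ (edgeR adjusted p = 0.0116) and had 0.02 in C57BL/6J, a difference of -2.14 ± 0.57 (95% interval -3.29 to -0.99, edgeR adjusted p = 0.164).

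Dhcr7, which encodes the reductase that makes cholesterol from its immediate precursor, fell by 1.23 in CAST/EiJ (edgeR adjusted p = 0.0203). CAST/EiJ females had 8.98, 4.29, 16.4 and 9.45 CPM on 44% fat, against 30.5, 11.9, 24.7 and 28.6 CPM on 10% fat. CAST/EiJ males had 25.3, 42.3, 30.9 and 20.2 CPM on 44% fat, against 103, 56.8 and 40.5 CPM on 10% fat. Each sex overlapped through 1 library. Dhcr7 had 0.21 in C57BL/6J, and the difference was -1.44 ± 0.37. Msmo1, a methylsterol oxidase, fell by 1.49 in CAST/EiJ (edgeR adjusted p = 0.0235) and had 0.18 in C57BL/6J. The other 5 genes that fell in CAST/EiJ were Cyp51, Pmvk, Tm7sf2, Nsdhl and Sc5d, and their differences lay between -0.76 and -1.27.

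The sensor genes had small values: Srebf2, which encodes SREBP2, had -0.30, and Scap, its escort protein, -0.09. Over females the list median was -0.74 and over males -0.89. Within the 3 identifier runs it was -0.87, -0.54 and -0.98. Leaving out 1 library at a time gave -1.04 (without C57BL/6J females on 44% fat replicate 1) to -0.73 (without CAST/EiJ males on 10% fat replicate 1). The mean centred log2 CPM of the list was -0.94 ± 0.50 in CAST/EiJ on 44% fat and -0.16 ± 0.46 on 10% fat, and 0.56 ± 0.59 in C57BL/6J on 44% fat and 0.52 ± 0.31 on 10% fat (SD, n = 8, 7, 8 and 8). The hepatocyte gene Alb fell by 0.36 in CAST/EiJ (edgeR adjusted p = 0.0422), and the hepatocyte markers, 3 of 11 above 0 and 8 below, had a median difference of -0.06. The 7 adipocyte markers tested, 2 above 0 and 5 below, had -0.74, below 0 in all 43 alternatives, none of which split the sexes. Over females the adipocyte median was 0.25, with 4 above 0 and 3 below, and over males -1.10, with 2 above and 5 below. The summed level of these markers was 36.2 to 485 CPM in CAST/EiJ on 44% fat and 39.2 to 572 CPM on 10% fat. In C57BL/6J it was 879 to 2580 CPM on 44% fat and 671 to 2160 CPM on 10% fat. Averaged over sex, no adipocyte marker had an unadjusted p under 0.05. Of the markers, Plin1, Plin4 and Fabp4 also belong to lipid lists. The part of these markers in the values of the sterol and fatty acid synthesis lists was not tested.

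**Figure D4:**
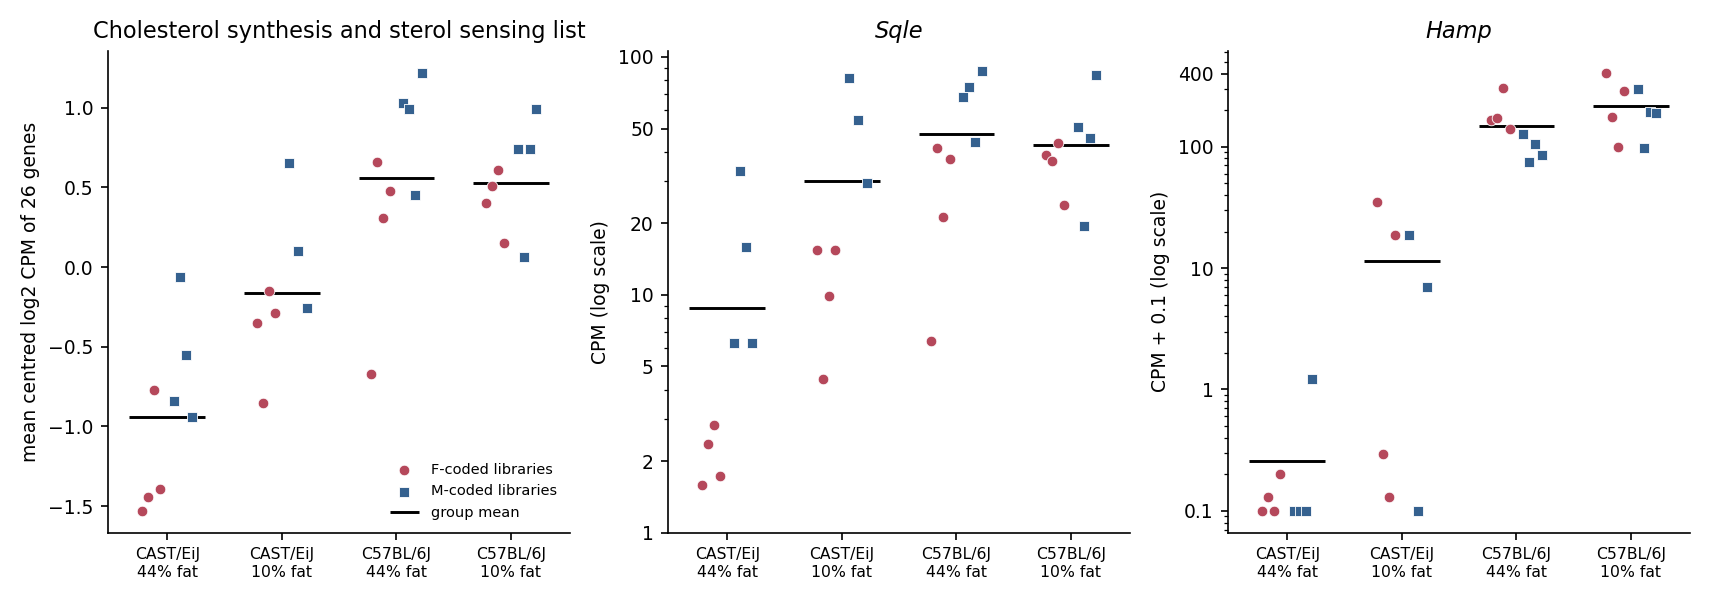
Mean centred log2 CPM of the 26 cholesterol synthesis and sterol sensing genes, and CPM (log scale) of Sqle and of Hamp with 0.1 added, in each library by strain and diet, with females (F-coded) and males (M-coded) marked and a line at each group mean. List values average -0.94 and -0.16 in CAST/EiJ on 44% and 10% fat, against 0.56 and 0.52 in C57BL/6J, and Hamp is at or near 0 in CAST/EiJ on 44% fat.

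Promoters of the sterol genes were searched for the sterol regulatory element TCACNCCAC on both strands, in the same windows of 250 bases before to 50 after the start. It was present in 172 of the 11380 tested genes that had a promoter entry (1.51%), in 1 of 18 sterol genes (5.56%), in 1 of 25 fatty acid oxidation genes (4%; Ehhadh), and in none of the 3 called genes. The sterol gene was Hmgcs1, which encodes the cytosolic enzyme that forms HMG-CoA and had a difference of -1.42 (edgeR adjusted p = 0.172). Its promoter is shown because it carries the match, in capitals, that starts 137 bases before the transcription start (chr13:119690101-119690400, plus strand, RefSeq on GRCm38.p6).
Hmgcs1: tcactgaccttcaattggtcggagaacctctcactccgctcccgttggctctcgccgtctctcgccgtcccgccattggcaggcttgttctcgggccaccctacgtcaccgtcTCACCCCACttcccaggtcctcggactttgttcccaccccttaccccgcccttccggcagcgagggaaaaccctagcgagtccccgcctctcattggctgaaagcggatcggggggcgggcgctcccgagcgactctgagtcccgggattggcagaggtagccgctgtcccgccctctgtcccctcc
The match is a description of these letters, and nothing was measured about a factor at this site.

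Fatty acid and triglyceride synthesis genes had the same sign as the sterol genes with smaller values. Of 27 genes, 2 were above 0 and 25 below, with a median of -0.43. None was called by edgeR, and 11 had an unadjusted p under 0.05 (9.57% of all genes tested, 5.87% below 0). Neither DESeq2 nor limma called any. The median diet effect was -0.28 in CAST/EiJ, where 1 gene, G6pdx, was called lower (0.396% of all genes tested). It was 0.22 in C57BL/6J, where none was called. Me1, malic enzyme, which supplies NADPH for fatty acid synthesis, had 78.5 CPM on 44% fat and 147 CPM on 10% fat in CAST/EiJ, and 479 CPM on 44% fat and 362 CPM on 10% fat in C57BL/6J (means). Its difference was -1.35 ± 0.42 (edgeR adjusted p = 0.251). Gpam, the first acyltransferase of triglyceride synthesis, had -1.10 ± 0.40, and Pgd, of the pentose phosphate pathway, -0.79 ± 0.26. The list median was -0.68, -0.39 and -0.40 within the 3 identifier runs and stayed between -0.57 and -0.31 when single libraries were left out.

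Fatty acid oxidation and ketone body genes lay on the other side of 0 by a small amount. Of 33 genes, 26 were above 0 and 7 below, with a median of 0.16, and none was called by edgeR, DESeq2 or limma. At an unadjusted p under 0.05, 6 were above 0 (3.7% of all genes tested). Both strains had positive medians, 0.31 in CAST/EiJ with 10 genes higher (0.498% of all genes tested), and 0.17 in C57BL/6J with none called. Cpt2, the inner-membrane carnitine palmitoyltransferase, rose by 0.46 in CAST/EiJ (edgeR adjusted p = 0.00228) and had 0.09 in C57BL/6J, a difference of 0.38 ± 0.11 (edgeR adjusted p = 0.238). Without the 5 libraries holding acinar transcripts the list median was 0.00, within the 3 runs it was 0.11, 0.36 and 0.00, and without C57BL/6J males on 10% fat replicate 2 it was 0.06. The PPAR alpha targets had a median of 0.47 over 18 genes, 13 above 0 and 5 below, and 0.22 without the same 5 libraries. That median was 0.13, 0.88 and 0.19 within the 3 runs, 0.28 without C57BL/6J males on 10% fat replicate 2 and 0.85 without CAST/EiJ males on 10% fat replicate 3. Acot1, an acyl-CoA thioesterase of that list, had 1.55 ± 0.59 and Slc22a5, the carnitine transporter, 0.88 ± 0.29.

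Carbohydrate and amino acid genes had small values. Of 18 glycolysis and fructose genes, 3 were above 0 and 15 below, with a median of -0.19. The 18 gluconeogenesis and glycogen genes had a median of -0.07, while G6pc, which releases free glucose, had 1.29 ± 0.41 (edgeR adjusted p = 0.251). Of 31 urea cycle and amino acid genes, 3 were above 0 and 28 below, with a median of -0.23. An unadjusted p under 0.05 was reached by 10, all below 0 (5.87% of all genes tested). Tdo2, which starts tryptophan breakdown, had -0.45 ± 0.14 and Ass1, the urea cycle's argininosuccinate synthase, -0.59 ± 0.19. Within the 3 runs the urea cycle and amino acid median was -0.13, -0.31 and -0.03. All 29 nuclear respiratory chain genes were below 0, but by a median of only -0.10, and the third run alone gave 0.00.

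Of 26 type I interferon response genes, 3 were above 0 and 23 below, with a median of -0.39. An unadjusted p under 0.05 was reached by 8, all below 0 (5.87% of all genes tested). The median diet effect was -0.17 in CAST/EiJ and 0.27 in C57BL/6J, with none called in either. Ifih1, the cytosolic RNA sensor MDA5, had 25.3 CPM on 44% fat and 30.1 CPM on 10% fat in CAST/EiJ and 41.5 CPM on 44% fat and 34.4 CPM on 10% fat in C57BL/6J (means). Its difference was -0.56 ± 0.14 (edgeR adjusted p = 0.140), and DESeq2 called it. Oasl1, an interferon-induced member of the oligoadenylate synthetase family, had -0.82 ± 0.27. The list median was -0.04, -0.63 and -0.31 within the 3 runs. Of 26 interferon gamma GTPases and MHC genes, 2 were above 0 and 24 below, with a median of -0.24, and 1 above 0 and 2 below had an unadjusted p under 0.05, a share near that of all genes tested.

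Hepatocytes along the path from portal to central vein express different genes, and the 2 zonal marker lists had opposite signs. Of 12 periportal genes 2 were above 0 and 10 below (median -0.46, 6 at an unadjusted p under 0.05). Of 12 pericentral genes 9 were above 0 and 3 below (median 0.17, 2 at an unadjusted p under 0.05). Over all genes tested, 9.57% had an unadjusted p under 0.05. Aldh1b1, a mitochondrial aldehyde dehydrogenase of the periportal list, had -1.14 ± 0.29 (edgeR adjusted p = 0.140). C57BL/6J females had 182, 48.5, 79.2 and 58.8 CPM on 44% fat, against 64.7, 53.3, 39.5 and 61.2 CPM on 10% fat, so that replicate 1 on 44% fat was far above the others. Without that library the difference of Aldh1b1 was -0.86, and without the 5 libraries holding acinar transcripts -0.83. Slc1a2, a glutamate transporter of the pericentral list, had 0.71 ± 0.21. Without that replicate 1 library the pericentral median was 0.05, and within the second run it was -0.04. Ass1 belongs to the periportal list as well as to the amino acid list.

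Among secreted and detoxifying products, 31 xenobiotic P450 genes had a median of 0.26, with 20 above 0 and 11 below. Without the 5 libraries holding acinar transcripts it was 0.03. Cyp2c67, a P450 of the Cyp2c family, rose by 0.80 in CAST/EiJ (edgeR adjusted p = 0.0481) and had a difference of 1.03 ± 0.28. Of 30 complement and coagulation genes, 21 were above 0 and 9 below, with a median of 0.13. An unadjusted p under 0.05 was reached by 6, all above 0 (3.7% of all genes tested). Mbl1, a mannose-binding lectin, rose by 0.40 in CAST/EiJ (edgeR adjusted p = 0.0136) and had 0.01 in C57BL/6J, a difference of 0.39 ± 0.12. Of 24 growth hormone and hepatokine genes, 19 were above 0 and 5 below, with a median of 0.21, and Igf1 had 0.41 ± 0.15. Of 27 glutathione and antioxidant genes 6 were above 0 and 21 below, with a median of -0.24. That median was -0.13 without CAST/EiJ males on 10% fat replicate 1 and 0.01 within the second run. Gsta1, a glutathione transferase of that list, had 71.3, 0.350, 0.994 and 0.270 CPM in C57BL/6J females on 44% fat, against 0.0404, 0.0785, 0.352 and 0.0236 CPM on 10% fat, so that replicate 1 on 44% fat was far above the rest. The difference of Gsta1 was -3.60 ± 1.15, -1.07 without that library and 0.34 within the second run.

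The lipid droplet (21 genes), circadian clock (20 genes), nuclear receptor (24 genes), conjugation enzyme (26 genes) and male-biased liver (20 genes) lists had medians between -0.03 and 0.01. Cidec, a lipid droplet fusion protein, had 0.99 in CAST/EiJ and rose by 2.56 in C57BL/6J (edgeR adjusted p = 0.0139), and its difference of -1.56 ± 0.77 was not called (edgeR adjusted p = 0.521). The difference of Cidec was -0.57 without C57BL/6J females on 44% fat replicate 1, -2.06 without C57BL/6J males on 10% fat replicate 2, and -2.87, 0.29 and -1.38 within the 3 runs. The 25 cell cycle genes had a median of -0.27, and 0.13 without C57BL/6J females on 44% fat replicate 1, and the 24 collagen and stellate markers -0.23 and 0.09 likewise. The 19 major urinary protein genes, near-identical copies whose reads cannot be assigned with certainty, had a median of -0.59 that was 1.24, -2.33 and 0.14 within the 3 runs and -0.39 without C57BL/6J males on 10% fat replicate 2. The 20 female-biased liver genes had -0.41, with 0.23 within the second run and -0.74 without C57BL/6J males on 10% fat replicate 2. Marker lists of Kupffer cells and macrophages (median 0.06), of T, NK and B cells (-0.02) and of cholangiocytes (0.00) held 0, 2 and 0 genes at an unadjusted p under 0.05 (9.57% of all genes tested). Averaged over sex, the 7 erythroid markers tested were all below 0 (median -0.34). Of 7 neutrophil markers, 2 were above 0 and 5 below (median -0.64), and neither list held a gene at an unadjusted p under 0.05. The 4 skeletal muscle markers tested had a median of 2.59 and the 8 pancreatic acinar markers 0.84. Within the first run alone these 4 medians were 0.72 (erythroid), 0.55 (neutrophil), -3.54 (muscle) and -8.84 (acinar), each of the other sign. Split by sex, the 7 erythroid markers were all above 0 in females (median 0.53) and all below 0 in males (median -1.20). The neutrophil median was 0.17 in females and -0.525 in males. The acinar median was -4.11 in females and 5.80 in males, and the muscle median 4.38 and 0.81.

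**Figure D5:**
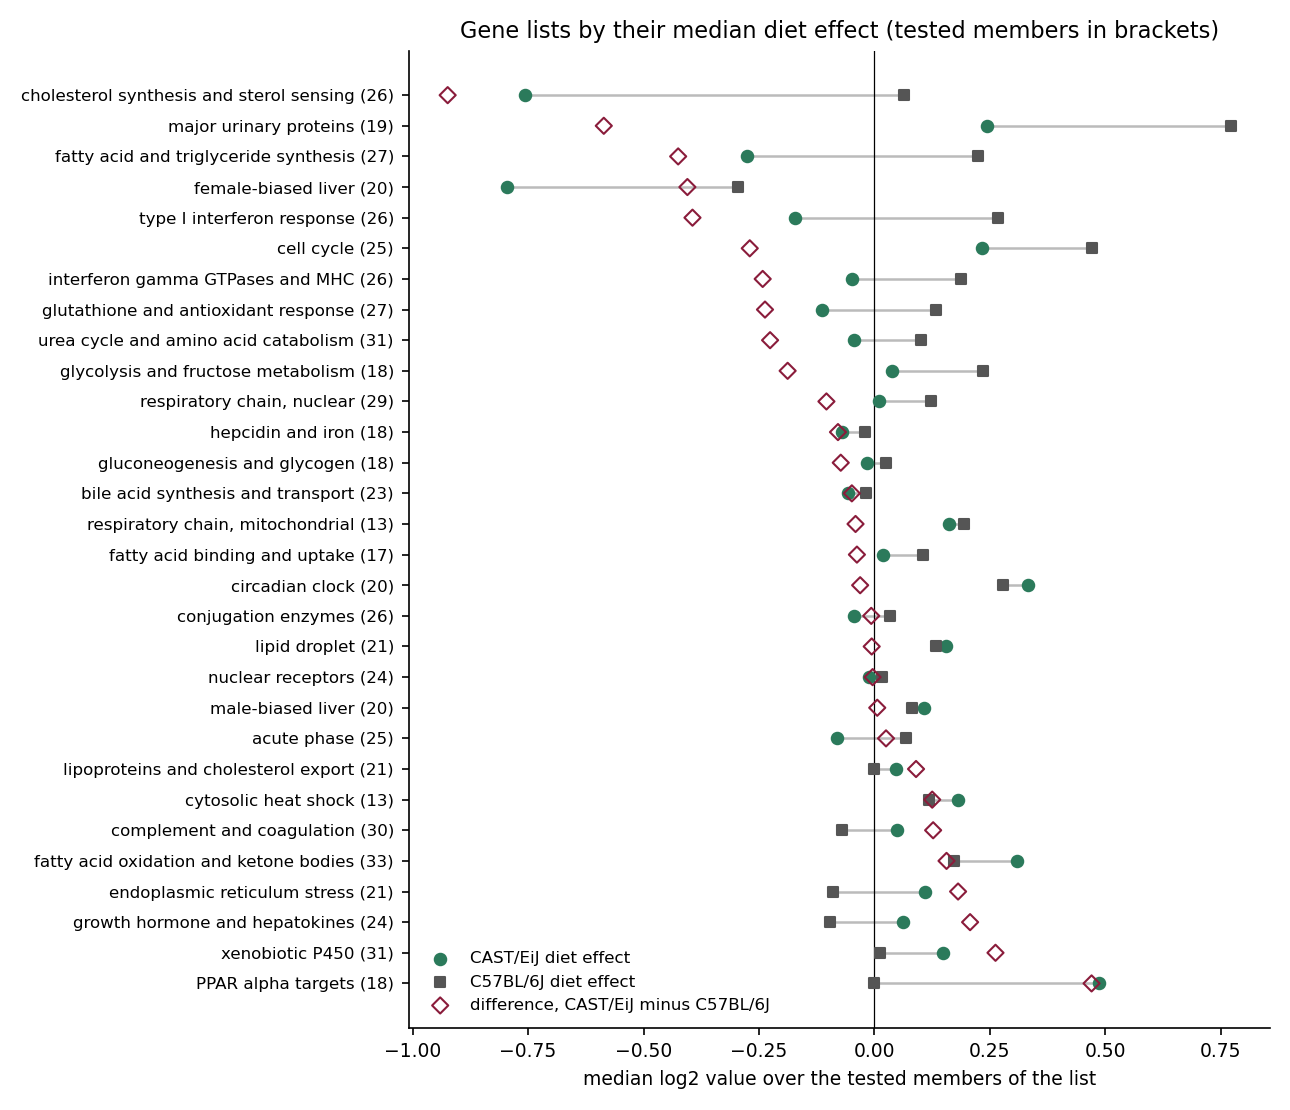
Median log2 diet effect (44% over 10% fat) over the tested members of each of 30 lists of genes by function, in CAST/EiJ (circles) and C57BL/6J (squares), and the median difference of diet effects (open diamonds), lists in order of the difference. Cholesterol synthesis and sterol sensing lies at -0.76 in CAST/EiJ, 0.06 in C57BL/6J and -0.92 for the difference, and fatty acid and triglyceride synthesis at -0.28, 0.22 and -0.43.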

How the data were processed

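Poly(A) RNA of liver was sequenced in paired ends, per the labels' protocols. The authors deposited estimated counts per gene, 20.3% of them not whole numbers, and a matrix of log2-scale, variance-stabilized values. The submitters' processing notes name DESeq2 and the build GRCm38. The aligner, counter, annotation release, strand setting and genome used for CAST/EiJ reads are not given there, so levels between strains may carry alignment differences. Each diet effect is taken within a strain, and whether alignment differences also reach it was not tested. Each gene in the deposited count table was above 0 in at least 24 libraries.

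Estimated counts were rounded and tested with edgeR 4.0.16 in R 4.3.3 (filter over the 12 groups, TMM scaling, robust quasi-likelihood fit to 12 group means over all 47 libraries, 35 residual degrees of freedom). Of 20320 genes, 16650 were tested, with Benjamini-Hochberg adjustment over all of them and a threshold of 0.05. Replicate libraries of a group differed by more than sampling noise and are numbered in accession order, since the labels number none. The scripts' test was checked on simulated data.

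The 43 gene lists and the genes singled out were chosen with earlier results of these data known. Genes named were those called with the same sign in both sexes, filled to 24 by the smallest p (at least 1 log2 CPM, symbol not provisional), up to 3 members of each list by the smallest p, and genes known from earlier results. Other list members, named where a count or sequence singles them out, were chosen after their values were seen. Some genes that the rule names are not reported here. Alternatives were DESeq2 1.42.0, limma 3.58.1 on the deposited log2 values, other scaling and filters, a fit of the 2 strains alone, identifier run or a clock score as covariate, each run alone, and leaving out the 5 acinar libraries (Cpa1 at 20 CPM or more) or each library in turn.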

Additional observations from a re-analysis of the deposited data

Results flagged for a closer look

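The diet effects of the 2 strains differed by the test of the difference itself at 3 genes: Mmd2 at -1.93, Tstd1 at -1.33 and Tceal8 at -1.23 (log2, CAST/EiJ minus C57BL/6J, edgeR adjusted p of 0.00283, 0.00102 and 0.00102). Their values by library are given above.

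Among the 24 genes given by rule, 7 of 168 groups of 4 libraries held 1 library far from the rest of its group by Dixon's criterion, which chance alone meets in about 1 of 20 groups. Btnl9 was at 6.42 CPM in C57BL/6J males on 10% fat replicate 3, with the nearest at 7.98 CPM. Adora1 was at 10.7 CPM in CAST/EiJ males on 44% fat replicate 1, with the nearest at 7.68 CPM. Hamp was at 1.12 CPM in CAST/EiJ males on 44% fat replicate 4, and the other 3 libraries were at 0. Chp1 was at 361 CPM in C57BL/6J males on 44% fat replicate 1, with the nearest at 313 CPM, and at 397 CPM in C57BL/6J males on 10% fat replicate 1, with the nearest at 351 CPM. Chrna2 was at 8.77 CPM in CAST/EiJ females on 10% fat replicate 2, with the nearest at 2.03 CPM. Fbxo40 was at 8.51 CPM in CAST/EiJ females on 10% fat replicate 4, with the nearest at 5.73 CPM.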

How the results depend on the processing

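No paired analysis was possible because the labels give no replicate numbers. The difference of diet effects was called at 3 genes as reported, at 7 with only the 2 strains in the fit, at 1 without the 5 acinar libraries, at 20 by limma, at 71 by DESeq2, and at 4, 1 and 0 in the 3 identifier runs alone, none of them among the 3. Leaving out 1 library gave 3 to 24 genes: 24 without CAST/EiJ females on 10% fat replicate 2, 20 without C57BL/6J males on 44% fat replicate 3, 9 without CAST/EiJ females on 44% fat replicate 1, 7 without C57BL/6J females on 44% fat replicate 2 or C57BL/6J males on 10% fat replicate 4, and 5 without CAST/EiJ males on 10% fat replicate 2 or 3 or CAST/EiJ females on 10% fat replicate 3. In females the count of 1 became 0 without the acinar libraries, 2 by limma and 15 by DESeq2, and 1 to 6 with a library left out. In males the count of 1 became 2 with the 1 CPM filter, the run covariate or the clock covariate, 3 with only the 2 strains, 0 without the acinar libraries, 10 by limma and 14 by DESeq2, and 1 to 4 with a library left out. Females minus males gave 4 by DESeq2 and 0 to 2 with a library left out. The diet effect in CAST/EiJ, 149 genes as reported, gave 98 with only the 2 strains, 99 with the run covariate, 321 by DESeq2, 0, 0 and 3 in the 3 runs, and 30 to 417 with a library left out. In C57BL/6J the 165 genes became 68 with only the 2 strains, 61 without the acinar libraries, 87 with the clock covariate, 320 by DESeq2, 21, 33 and 0 in the 3 runs, and 56 to 369 with a library left out. A fit of 1 run holds at most 12 of the 31 libraries; the cause of the other shifts was not tested. The difference of Cpa1, 1.4 as reported, was -12.34 in the first run alone, and the cause was not tested. Of the 30 lists of genes by function, the median kept its sign under all 43 alternatives in 10, among them cholesterol synthesis, fatty acid and triglyceride synthesis and type I interferon response. The ranges of depth of the strain and diet groups overlapped.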
